A study of Glycine max with 5 samples.

Results

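PIN2A, AUX22 and AUX28 are 3 soybean genes of auxin transport and auxin response, and their transcripts were compared between root tips and non-meristematic tissue of seedlings of the same age. They were taken as every probe set on the array that the platform annotation assigns to 1 gene with one of these symbols. This gave 3 probe sets, 1 for each gene, out of 8677 single-gene probe sets for 6029 genes. Their Entrez Gene numbers are 100499638 for PIN2A, 547784 for AUX22 and 547965 for AUX28, and none of the 3 probe sets carries a suffix that marks it as able to cross-hybridize. With 1 probe set a gene, no second probe set could be set beside any of the 3 values.

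The 3 root meristem arrays held RNA from the terminal 0.5 mm of the root, which the tissue field names root apical meristem (RAM), and the 2 non-meristematic arrays held RNA of tissue that one field calls leaf and the protocol calls the remaining parts of the plant. All plants were of genotype Bragg, 10 days old, untreated, and grown without fertilizer at 28 °C. The titles call the arrays biological replicates, while the free-text descriptions speak of embryos and match none of the other fields, so the groups rest on the titles. Whether plants were pooled for an array is not given in the sources used here, and p-values measure the spread between these arrays. A cut root tip also holds cells outside the meristem, and in such bulk RNA fewer cells of a type and less RNA per cell cannot be told apart. No array held only root tissue from outside the tip. A difference between meristem and other tissue therefore cannot be told apart from one between root and shoot.

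Auxin moves from cell to cell through influx carriers of the AUX1/LAX family and efflux carriers of the PIN family. In Arabidopsis, PIN2 sits in the epidermis and lateral root cap of the root tip, carries auxin from the tip back toward the shoot, and is required for root gravitropism. Inside the cell, auxin binds TIR1/AFB receptors, which mark AUX/IAA repressor proteins for degradation and so free auxin response factors (ARFs) to act. AUX22 and AUX28 encode AUX/IAA proteins, and their transcripts were first described in soybean as induced by auxin.

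The contrast of the 2 tissues was broad. Values are MAS5 signals, in which the probe pairs of a probe set are condensed into 1 linear signal per array. Background was taken as the 25th percentile of each array, which ranged from 17.9 to 22.5 in root meristem and was 37 and 26.3 for non-meristematic arrays 1 and 2. Of 30941 probe sets tested with limma, 32.5% passed, meaning an adjusted p below 0.05 together with a log2 change of 1 or more in size, and these were made up of 14.4% higher and 18.1% lower in root meristem. The larger share changed sides with the scaling: 4452 were higher and 5608 lower as given. Quantile normalization gave 5719 higher and 4717 lower, and median centring gave 6574 higher and 4948 lower. The groups did not overlap at 63.7% of probe sets, so non-overlap alone is common in these data. Across all tested probe sets the median log2 difference was 0.07, and it was 0.30 after quantile normalization and 0.32 after median centring. The tissue labels were set against marker genes: of 7 leaf and chloroplast genes 6 were lower and none higher in root meristem, with a summed signal of 5057 to 5335 in root meristem and 25979 to 31619 in non-meristematic tissue. None of these 7 was at 0 on any array. The 2 cell division genes measured, H4 and PCNA, were both higher in root meristem. Their summed signal was 3576 to 4462 in root meristem and 1028 to 1348 in non-meristematic tissue, which thus held their transcripts too.

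PIN2A, the efflux carrier gene, had signals of 1739.5, 2400.5 and 1983.6 on root meristem arrays 1, 2 and 3, against 26.1 and 25.2 on non-meristematic arrays 1 and 2. Every root meristem array lay far above both non-meristematic arrays, and both non-meristematic signals lay below the background of their own array. The means were 2041 ± 334 in root meristem (SD, n = 3) and 25.7 ± 0.64 in non-meristematic tissue (SD, n = 2). With the non-meristematic arrays held at their background, PIN2A was on average at least 64.9-fold higher in root meristem. This bound compares mean log2 signals and makes no allowance for the spread between arrays. The fit with signals set to background gave a log2 difference of 6.02 ± 0.26 (SE). The fitted log2 difference, which uses the signals below background as they stand, was 6.30 ± 0.23 (SE; limma adjusted p = 2.76e-05). PIN2A was above background on the root meristem arrays alone, and so entered the test only through the group where it is high. Its SE and p therefore rest partly on signals below background. Since the non-meristematic values are bounded only from above, the bound follows the background chosen, and it was at least 54.7-fold with 37 taken as background on every array. Among the root meristem arrays the highest PIN2A signal was 1.38 times the lowest. For comparison, that ratio had a median of 1.33 over the 23185 probe sets above background on all 5 arrays.

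**Figure D1:**
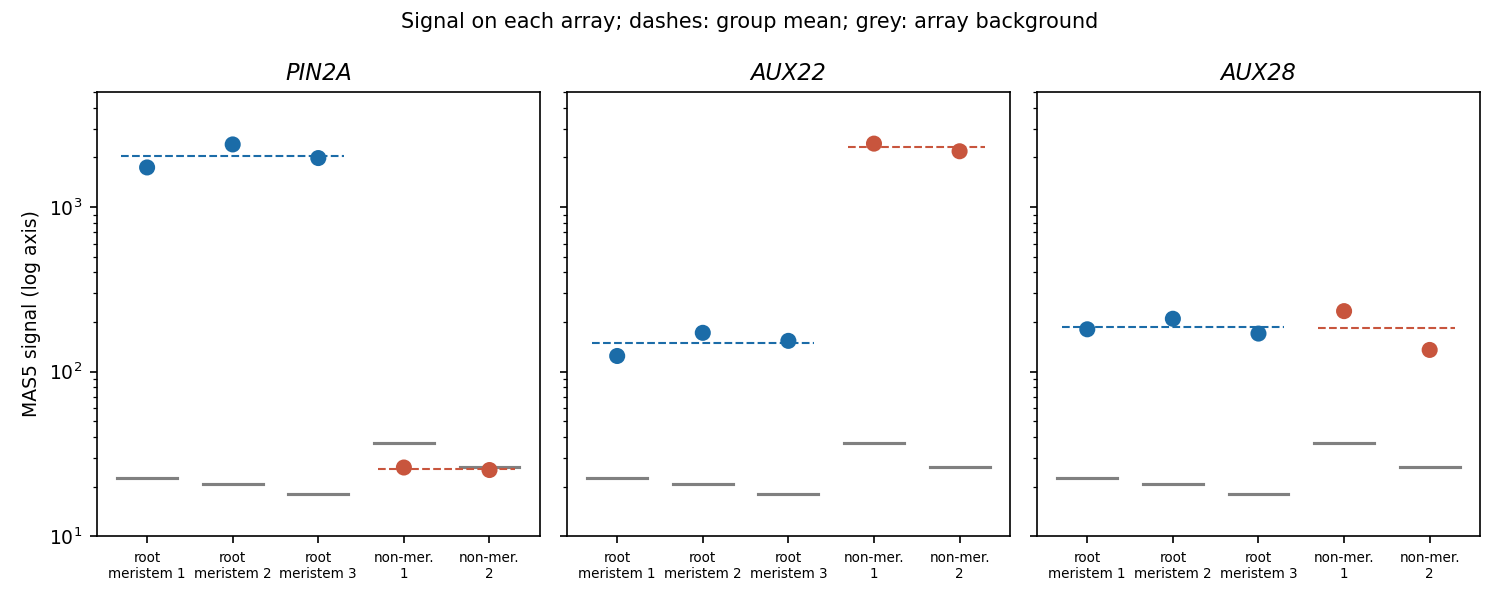
MAS5 signal (log axis) of PIN2A, AUX22 and AUX28 on each of the 3 root meristem arrays (blue) and 2 non-meristematic arrays (red, "non-mer."), with dashed lines at the group means and grey bars at each array's 25th percentile, used as background. PIN2A sits at 1739.5 to 2400.5 in root meristem and below the grey bars in non-meristematic tissue, AUX22 is lower in root meristem, and the AUX28 groups overlap.

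AUX22, an AUX/IAA gene, showed the opposite pattern. Its signals were 124.3, 171.9 and 153.6 on root meristem arrays 1, 2 and 3, and 2427.8 and 2181.7 on non-meristematic arrays 1 and 2. All 5 signals were above background and the groups did not overlap, so that here both sides of the difference were measured. The means were 150 ± 24.0 in root meristem (SD, n = 3) and 2305 ± 174 in non-meristematic tissue (SD, n = 2). AUX22 was 15.5-fold lower in root meristem, with a log2 difference of -3.95 ± 0.22 (SE; 95% interval -4.48 to -3.42; limma adjusted p = 8.44e-05). Among the 23185 probe sets above background on all 5 arrays, 1.07% had a lower difference than AUX22, whose rank was 248 from the bottom. That subset leaves out probe sets below background in root meristem. Among all 30941 probe sets tested, AUX22 ranked 1698 from the bottom. Over the 5650 genes tested the 5th percentile of the log2 difference was -5.26, lower than the value of AUX22. Marker lists of other tissues were lower in root meristem as well: 6 of 7 leaf and chloroplast genes, 2 of 2 leaf storage genes, 2 of 3 leaf identity genes and 7 of 7 tested phloem genes of the sieve element occlusion family. For comparison, 21% of all 5650 genes tested were lower. The summed signal of the phloem genes was 321.5 to 510.6 in root meristem and 4747 to 4977 in non-meristematic tissue. That of the leaf storage genes was 223 to 292 in root meristem and 18597 to 22452 in non-meristematic tissue, and that of the leaf identity genes was 31.2 to 60.7 in root meristem and 845 to 1293 in non-meristematic tissue. No gene of these lists was at 0 on any array, which does not place a gene above background. The leaf identity sum in root meristem is over 3 genes, where the background of a single probe set was 17.9 to 22.5. The part of these lists in the AUX22 difference was not tested.

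AUX28, the other AUX/IAA gene, did not pass the test. Its signals were 180.6, 209.3 and 170.1 on root meristem arrays 1, 2 and 3, and 232.9 and 135.3 on non-meristematic arrays 1 and 2. All 5 were above background, and the non-meristematic arrays lay on either side of the whole root meristem range. The means were 187 ± 20.3 in root meristem (SD, n = 3) and 184 ± 69.0 in non-meristematic tissue (SD, n = 2), a log2 difference of 0.07 ± 0.30 (SE; limma adjusted p = 0.88). The 95% interval, from -0.65 to 0.78, spans 0.637 to 1.72 times the non-meristematic level. The non-meristematic pair was the more spread group, its higher signal being 1.72 times the lower. That ratio was larger than in 78.6% of the probe sets above background on all 5 arrays, where the median was 1.33. Without non-meristematic array 1 the log2 difference was 0.46, and without non-meristematic array 2 it was -0.32, with adjusted p = 0.216 and 0.353 (limma). Wherever a non-meristematic array is left out, 1 remains, and it is assumed to vary like the root meristem arrays.

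Changes of the genes relative to each other were followed as log2 ratios within each array, in which a scaling factor common to an array cancels. Such a ratio compares 2 different probe sets, so its level has no meaning by itself and only its change between tissues is read. The log2 ratio of AUX22 over AUX28 was -0.54, -0.28 and -0.15 on root meristem arrays 1, 2 and 3, against 3.38 and 4.01 on non-meristematic arrays 1 and 2. The groups did not overlap, and the difference in the ratio was -4.02 on the log2 scale (p = 0.2, exact two-sided permutation test over the 5 arrays, the smallest p that 3 arrays against 2 allow).

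The log2 ratio of PIN2A over AUX22 was 3.81, 3.80 and 3.69 on root meristem arrays 1, 2 and 3, against -6.54 and -6.44 on non-meristematic arrays 1 and 2, a difference of 10.25. Its SD among root meristem arrays was 0.07, smaller than that of log2 PIN2A (0.23) or log2 AUX22 (0.24) alone. The same SD was 0.15 for PIN2A over AUX28 and 0.20 for AUX22 over AUX28. PIN2A and AUX22 both had their lowest signal on root meristem array 1 and their highest on array 2. Array 2 held the highest root meristem signal in 33.5% of the probe sets above background on all 5 arrays. How often 2 probe sets share a whole order over 3 arrays was not tested. The ratio of PIN2A over AUX28 differed by 6.23. Each of the 3 ratios gave p = 0.2 in that exact permutation test, and the PIN2A ratios rest on non-meristematic signals below background.

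The rest of the auxin pathway was thinly covered by named probe sets. The RefSeq gene table names 16 PIN genes, of which PIN2A alone had a single-gene probe set. It names 15 LAX genes, of which LAX11 had one, and 6 TIR1 and AFB genes, of which TIR1C and AFB3B had one or more. No gene named for auxin synthesis, GH3 or SAUR had a single-gene probe set, and PIN2B, named in that table as well, was not analysed here. With ARF, whose symbol alone put it in the list and whose link to auxin is uncertain, 7 auxin genes were measured. Of these, 1 was higher in root meristem (PIN2A), 1 lower (AUX22) and 5 did not pass, while 39.6% of the 5650 genes tested passed, 18.6% higher and 21% lower. The median log2 difference of the 7 genes was -0.21, against 0.20 over all genes. Without ARF the median of the remaining 6 genes was -0.30. Outside PIN2A, AUX22 and AUX28, none of the other 4 genes, ARF included, passed, and 1 of them, LAX11, had an unadjusted limma p below 0.05.

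LAX11, an auxin influx carrier gene, had weak signals of 65.7, 38.6 and 35.6 on root meristem arrays 1, 2 and 3, against 87 and 98.8 on non-meristematic arrays 1 and 2. The root meristem signals were all lower than the non-meristematic ones, but the difference did not pass (log2 -1.05 ± 0.37, limma adjusted p = 0.0631). Without root meristem array 1 it passed (log2 -1.32, adjusted p = 0.042). LAX11 also passed where all 5 arrays had to lie above background (limma adjusted p = 0.043) and with signals set to background (adjusted p = 0.0466), both with the log2 difference unchanged. After quantile normalization the log2 difference was -0.58 and it did not pass (limma adjusted p = 0.224).

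The receptor genes had bright signals and small differences. TIR1C had 788.3, 783.3 and 745.5 on root meristem arrays 1, 2 and 3, against 842.3 and 1204.9 on non-meristematic arrays 1 and 2. The groups lay apart without overlap, and the log2 difference was -0.38 ± 0.21 (limma adjusted p = 0.191). The suffix of the TIR1C probe set, _a_at, marks it as able to detect several transcripts. AFB3B had 2696.9, 2909.5 and 2595.6 in root meristem, against 2482.8 and 4008.5 on non-meristematic arrays 1 and 2. The non-meristematic arrays enclosed the root meristem range, with a log2 difference of -0.21 ± 0.22 (adjusted p = 0.487) that turned to 0.04 after median centring. A dimmer AFB3B probe set had a log2 difference of 0.25 ± 0.38 and did not pass either. The 95% intervals on the brightest probe sets, -0.88 to 0.12 for TIR1C and -0.73 to 0.31 for AFB3B, lay within a log2 difference of 1 of either sign, and so did not reach the differences of PIN2A or AUX22.

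ARF, whose link to auxin is uncertain, had 3083.2, 3518.4 and 2540.5 in root meristem, against 2922.2 and 3316.2 on non-meristematic arrays 1 and 2. The ranges overlapped, with a log2 difference of -0.04 ± 0.18 (limma adjusted p = 0.869) whose sign turned after median centring (0.20). Of its 2 other probe sets, one had a log2 difference of -0.04 ± 0.16. The other was dim, with 23.2, 20.9 and 22.3 on root meristem arrays 1, 2 and 3, against 51.7 and 37.8 on non-meristematic arrays 1 and 2, and its groups did not overlap. That dim ARF probe set did not pass either (log2 -0.999 ± 0.40, limma adjusted p = 0.0917).

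**Figure D2:**
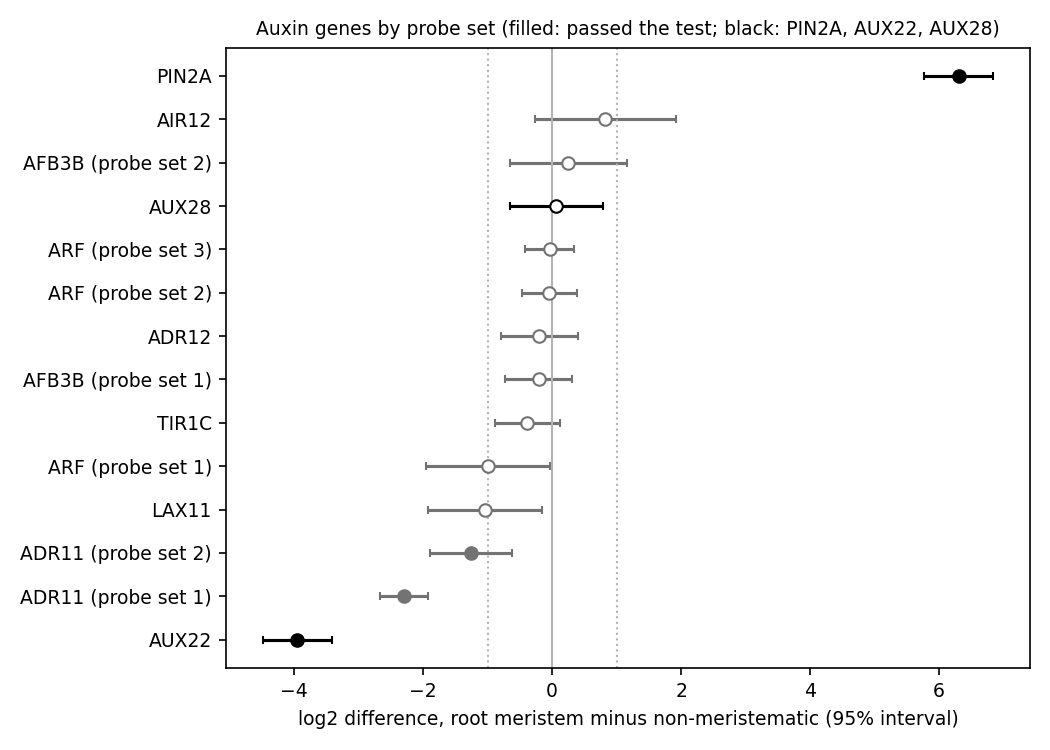
Log2 difference (root meristem minus non-meristematic) with its 95% interval for each probe set of the auxin genes, n = 3 and 2 arrays; filled points passed the test and dotted lines mark a log2 difference of 1 in either direction. PIN2A at 6.30 and AUX22 at -3.95 stand apart, while the other carrier, receptor and ARF probe sets lie between -1.05 and 0.25. ARF is shown because of its symbol, and its link to auxin is uncertain. ADR11 (-2.30 and -1.26, both passed), ADR12 (-0.20) and AIR12 (0.83) were added after their values were seen.

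Genes whose symbols refer to a response to auxin were added after their values were seen. ADR11, named in soybean as a transcript lowered by auxin, had signals of 4518.4, 2784.6 and 2491.7 on root meristem arrays 1, 2 and 3, against 6925.5 and 8228.8 on non-meristematic arrays 1 and 2. ADR11 was lower in root meristem on this brighter probe set (log2 -1.26 ± 0.26, limma adjusted p = 0.0102) and on its other one (log2 -2.30 ± 0.16, adjusted p = 0.000153). Against a log2 difference of 1 (limma treat), the brighter ADR11 probe set kept its log2 difference of -1.26 but no longer passed (adjusted p = 0.64). Both are marked by suffix as able to detect several transcripts or to cross-hybridize. ADR12, named in the same way, did not pass (log2 -0.20 ± 0.25), and its sign turned after quantile normalization and median centring. AIR12, named in Arabidopsis for induction by auxin in root cultures, did not pass (log2 0.83 ± 0.45, adjusted p = 0.195) and its size rested on the non-meristematic pair. The log2 difference of AIR12 was 1.61 without non-meristematic array 1 (limma adjusted p = 0.00314) and 0.04 without array 2 (adjusted p = 0.914).

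Genes with the most similar patterns were found by centring the log2 signals of each probe set on their mean over the 5 arrays and taking the smallest root mean square (RMS) difference among 888 genes with a symbol other than a LOC number. With 5 arrays in 2 groups, this measure mainly ranks genes by the size of the tissue difference. The genes nearest to PIN2A were MYB92, a MYB transcription factor gene, at an RMS log2 difference of 0.21, CHR1, a chalcone reductase gene, at 0.26, PTS-L4 at 0.33 and PRP1 at 0.41. MYB92 had signals of 946.1, 1088 and 734.3 in root meristem, against 13.8 and 10.2 in non-meristematic tissue, where it too lay below background. The genes nearest to AUX22 were RCABETA, a Rubisco activase gene, at 0.17, the catalase gene CAT4 at 0.23, the bZIP transcription factor gene BZIP46 at 0.29 and SEO-F3, of the sieve element occlusion family, at 0.32. CAT4 had 211.5, 263.5 and 183.3 in root meristem, against 2872.2 and 2515.9 on non-meristematic arrays 1 and 2. The genes nearest to AUX28 were DR1 at 0.07, the expansin gene EXP2 at 0.07, and the lipoxygenase gene LOX9 and the aquaporin gene PIP1-6, both at 0.11. Like AUX28, DR1 was higher on non-meristematic array 1 (973.4) and lower on array 2 (618.2) than on all root meristem arrays (774.2 to 848.6). Suffixes mark the probe sets of all 4 genes nearest to PIN2A as able to detect several transcripts or to cross-hybridize. The same holds for RCABETA, CAT4 and PIP1-6. In root meristem BZIP46 (8 to 10) lay below background and RCABETA (23.1 to 24) close above it. The sets of neighbours depended on how dim signals and scaling were treated. Of each 4, adding 16 before log2 kept 2 for PIN2A and 1 for AUX22, and quantile normalization kept 1 for AUX28.

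**Figure D3:**
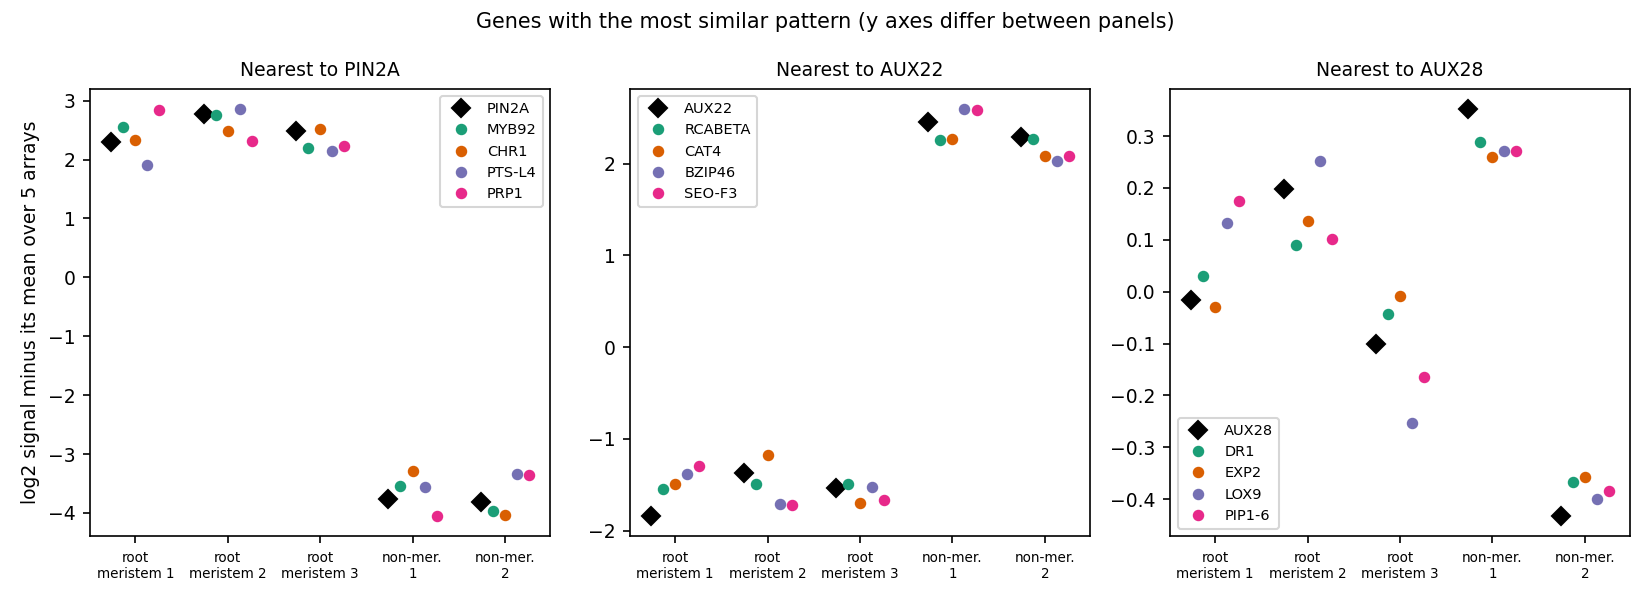
Log2 signal minus its mean over the 5 arrays for PIN2A, AUX22 and AUX28 (black diamonds) and the 4 named genes nearest to each (coloured circles), on the root meristem arrays and then the non-meristematic arrays ("non-mer."); the y axes differ between panels. The genes near PIN2A and AUX22 follow the tissue difference, and those near AUX28 are highest on non-meristematic array 1 and lowest on array 2.

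The calls of the 3 genes were compared under every processing setting tried. PIN2A was higher in each of the 13 settings in which it was tested, with log2 differences of 5.61 to 6.64, and AUX22 lower in 14 settings, with -4.06 to -3.71. AUX28 passed in none of 14 settings, with limma adjusted p of 0.216 or more in each. Relative to the median of all probe sets, PIN2A differed by 6.23, AUX22 by -4.02 and AUX28 by -0.0048 on the log2 scale without scaling, and by 6.34, -4.27 and -0.07 after quantile normalization.

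**Figure D4:**
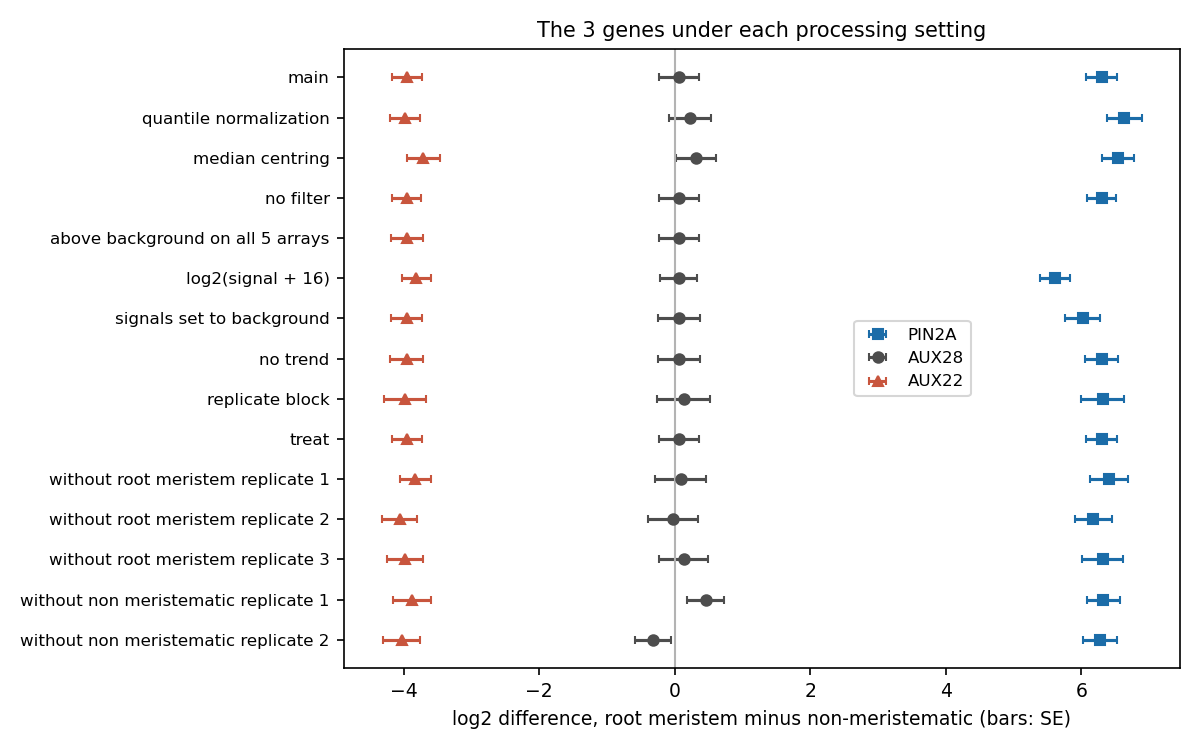
Log2 difference (root meristem minus non-meristematic) ± SE of PIN2A (squares), AUX28 (circles) and AUX22 (triangles) under each processing setting, one per line, with the reported setting at the top. PIN2A stays between 5.61 and 6.64 and AUX22 between -4.06 and -3.71, while AUX28 crosses 0 when an array is left out.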

How the data were processed

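The deposited table held MAS5 signal intensities on a linear scale for 37593 probe sets on 5 arrays, per the submitters' processing notes; which MAS5 version and scaling target the authors chose is not stated there. Signals were raised to a floor of 0.1 and log2-transformed without further scaling. A probe set was tested when above its array's 25th percentile on at least 2 arrays. Differences, root meristem minus non-meristematic, were fitted with limma 3.58.1 in R 4.3.3 (eBayes with intensity trend) and adjusted by Benjamini-Hochberg over the 30941 probe sets tested; 3 residual and 3.68 prior degrees of freedom stood behind each, and the fit was tested on simulated data. The platform annotation supplied gene names, updated by Entrez number through the RefSeq table of Glycine_max_v4.0 (8652 of 8677 single-gene probe sets matched), and each gene stood by its brightest tested probe set. Of the other probe sets, 370 had several genes and 28546 were not listed. The genes, lists and rules were chosen with earlier results of these data known. Named genes were the 3 members, all auxin genes matched by symbol, and the 4 genes nearest in pattern to each member. Alternatives changed the scaling, filter, floor, variance model, replicate block, null difference or 1 array at a time. Arrays carry no molecule count, so their number limits the precision. Probe, promoter and protein sequences were not used here, so planned lists based on protein sequence were not made.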

Additional observations from a re-analysis of the deposited data

How the results depend on the processing

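PIN2A and AUX22 kept direction and call in every alternative run, but PIN2A was not tested where signal above background on all 5 arrays was required. With 1 array left out at a time, the log2 difference was 6.18 to 6.41 for PIN2A, -4.06 to -3.82 for AUX22 and -0.32 to 0.46 for AUX28, which reversed without root meristem array 2 (-0.02) and without non-meristematic array 2 (-0.32). The PIN2A bound ran from 54.7-fold to 76.9-fold with an array left out, and was 54.7-fold with the highest background on every array, a setting chosen after seeing the data. The difference in the PIN2A over AUX22 ratio moved to 10.61 after quantile normalization, 9.43 with log2(signal + 16) and 9.97 with signals set to background, and that of PIN2A over AUX28 to 5.56 with log2(signal + 16). With every probe set required above background on all 5 arrays, 23185 probe sets were tested in place of 30941. Of these 6518 differed, 3367 higher and 3151 lower, in place of 10060, with 4452 higher and 5608 lower. Against a log2 difference of 1 (limma treat) 4032 differed, 1161 higher and 2871 lower, in place of 4452 higher and 5608 lower, and ADR11 (-1.26) lost its call. The split of higher and lower was 5719 and 4717 after quantile normalization and 6574 and 4948 after median centring. In the auxin list, 0 genes were higher with all 5 arrays above background, and 2 were lower there, with signals set to background and without root meristem array 1 (range 1 to 2 with an array left out), the second being LAX11. Among genes that did not pass, signs reversed for AFB3B (0.039), ARF (0.20) and ADR12 (0.048) after median centring, ADR12 (0.15) after quantile normalization and ARF (0.081) with the replicate block; with an array left out AFB3B ran from -0.55 to 0.14 and ARF from -0.15 to 0.081. Median centring moves the log2 difference of every probe set by the same amount, and the median of all went from 0.07 to 0.32. The cause of the other reversals was not tested. Replicate numbers 1 and 2 are shared, but no label says that they pair samples (correlations of deviations 0.099 and -0.089); with the replicate block 7589 probe sets differed, with PIN2A at 6.32, AUX22 at -3.98 and AUX28 at 0.13, their calls unchanged.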

Other observations

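Genes beside the 3 members were looked up in the gene order of the RefSeq table, which is that of Williams 82 and not of Bragg. Among the 3 protein-coding genes on either side of each member, 4 genes had a tested single-gene probe set. For comparison, 39.6% of all 5650 genes tested passed, 18.6% higher and 21% lower in root meristem. LOC100819339, 3 genes from PIN2A, had signals of 1107, 1091.1 and 1485.4 on root meristem arrays 1, 2 and 3, against 417.2 and 746 on non-meristematic arrays 1 and 2, and was higher in root meristem (log2 1.12 ± 0.29, limma adjusted p = 0.0228). The others did not pass: LOC100819561 and LOC100820625, both within 2 genes of AUX22, had log2 differences of 0.11 to 0.27 and 0.03, and TSA, 3 genes from AUX28, had 0.24 ± 0.21.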
